A study of Homo sapiens with 6 samples.

Results

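The NADPH oxidase genes NOX4, NOX1, NOX5, CYBA, CYBB, NOXA1, RAC1, DUOX1 and DUOX2 were chosen by name, as 9 of the 37902 genes in a table of RNA levels from the retinal pigment epithelium (RPE) cell line ARPE-19. The question was whether the RNA of the oxidase that POLDIP2 acts on, and of its relatives, differs between the WT and POLDIP2 KO lines. WT is the parental ARPE-19 line, with the genotype wildtype. POLDIP2 KO is ARPE-19 transduced with a lentivirus carrying SpCas9 and an sgRNA against the POLDIP2 coding sequence, selected with puromycin and expanded as 1 line, and no cloning step is described for it. Each line had 3 biological replicates, all under regular maintenance at day 3, and no sample used here received an oxidative challenge or a virus without the POLDIP2 sgRNA. The poly(A) RNA of each replicate was sequenced as 1 stranded library.

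NADPH oxidases are membrane enzymes that pass electrons from NADPH to oxygen and so release superoxide or hydrogen peroxide. Each has a catalytic subunit (NOX1 to NOX5, DUOX1 or DUOX2), and NOX1 to NOX4 need the small membrane partner p22phox, which CYBA encodes. NOX2, encoded by CYBB, is the oxidase of phagocytes and is switched on by cytosolic subunits and a Rac GTPase. NOX4 in contrast is active without them, and POLDIP2 is known to bind p22phox and to raise NOX4 activity. An effect of that kind acts on the protein and need not show in RNA.

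Levels are given as normalised counts, that is, counts divided by a factor for the depth of each library. POLDIP2 itself had 3919, 4827 and 4798 normalised counts in the WT libraries, in the order of replicates 1, 2 and 3 that is kept throughout, against 1063, 1248 and 1143 in those of POLDIP2 KO. The lines did not overlap, and POLDIP2 fell by 1.97 on the log2 scale (SE 0.125, 95% interval -2.26 to -1.67, limma adjusted p = 0.00961). This call was lost, with limma adjusted p values of 0.0558, 0.0639, 0.0886 and 0.0820, when WT replicate 2, WT replicate 3, POLDIP2 KO replicate 2 or POLDIP2 KO replicate 3 was left out, while the size of the fall stayed between -2.07 and -1.91. The reads counted to genes, as recovered from the normalised counts, came to 31532797 to 45795509 per library.

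Of the 9 genes, NOX1 was not detected, and the other 8 had reads in every library. NOX1 had 0 reads in all 6 libraries, and a count of 0 allows up to 3 reads per library, for counting error only. Of the oxidase subunits and maturation factors beside these 9, the catalytic subunit NOX3 also had 0 reads in every library, as did NCF4 and DUOXA2. NCF1 and DUOXA1 had at most 2, and NOXO1 had at most 6. The plot of subunits by oxidase places these genes side by side.

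**Figure D1:**
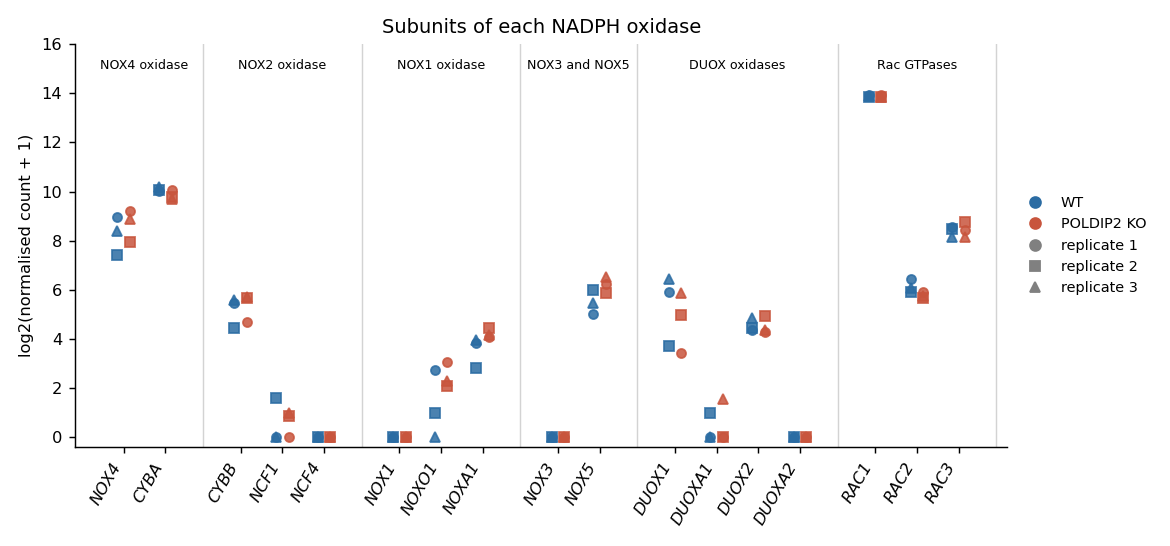
Level of each NADPH oxidase subunit, as log2(normalised count + 1), in the 3 WT libraries (blue) and the 3 POLDIP2 KO libraries (red), grouped by the oxidase it belongs to; circles, squares and triangles are replicates 1, 2 and 3. NOX4 and CYBA lie between 7 and 11 in every library, while NOX1, NCF4, NOX3 and DUOXA2 lie at 0, and RAC1 is the highest at close to 14.

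The sequences upstream of NOX4, CYBA and NOX1 are shown because these are the catalytic subunit that POLDIP2 is known for, its detected partner, and the member with no reads. They are RefSeq sequences of GRCh38.p14, read 5′ to 3′ on the gene's own strand, and cover the longest stretch, of at most 150 bases within the 250 bases before the RefSeq start, that no annotated exon overlaps. Capitals mark GGGCGG or its reverse complement, the GC box. The NOX4 stretch is chr11:89491566-89491625 on the minus strand, 250 to 191 bases before the start. That of CYBA is chr16:88651084-88651233 on the minus strand, 180 to 31 bases before the start, and that of NOX1 is chrX:100874360-100874509 on the minus strand, 150 to 1 bases before the start.
NOX4: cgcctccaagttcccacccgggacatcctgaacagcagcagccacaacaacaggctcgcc
CYBA: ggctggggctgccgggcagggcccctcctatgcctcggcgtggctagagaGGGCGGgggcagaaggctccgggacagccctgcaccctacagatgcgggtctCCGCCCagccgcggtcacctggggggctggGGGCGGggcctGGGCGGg
NOX1: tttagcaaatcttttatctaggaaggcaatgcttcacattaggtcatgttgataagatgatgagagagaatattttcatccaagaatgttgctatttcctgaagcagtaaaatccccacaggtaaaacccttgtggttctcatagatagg

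The CYBA stretch held 4 GC boxes and was 77.3% G or C, and the NOX1 stretch held none and was 36.7% G or C. The NOX4 stretch also held none and was 63.3% G or C. It lay inside the annotated gene, which reaches chr11:89498187, and further from the RefSeq start than the window used next. For a comparison over equal windows, the 150 bases from 180 to 31 before the start were searched on both strands in the 8 members with a RefSeq entry, all but RAC1, and in all 35097 such windows. GGGCGG stood in 34.5% of all windows and in those of NOX4, CYBA, NOXA1 and DUOX1. TATAAA stood in 5.06% of all windows and, among the members, in that of DUOX2. The windows of NOX4, CYBA, NOXA1 and DUOX1 were 76.0% to 77.3% G or C with 11 to 19 CpG, those of NOX1 and CYBB were 34.0% and 35.3% G or C with 0 and 1 CpG, NOX5 was 50% G or C with 0 CpG and DUOX2 was 62.7% with 10, beside medians of 59.3% and 6 CpG over all windows. NOXA1 and DUOX1, whose windows were as rich in G and C as those of NOX4 and CYBA, had far fewer reads than these. Unlike the printed stretches, the equal windows were not chosen to avoid exons. Annotated exons overlapped those of NOX4, CYBB, NOXA1, DUOX1 and DUOX2. A match is a description of the letters only.

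NOX4 (ENSG00000086991, chr11:89324353-89498187 on the minus strand, GRCh38) was detected in every library and did not pass the test between the lines. In WT it had 504, 171 and 337 normalised counts, and in POLDIP2 KO it had 597, 244 and 467. The lines overlapped widely, at 337 ± 166 in WT and 436 ± 178 in POLDIP2 KO (SD, n = 3 each). In both lines replicate 1 was the highest library and replicate 2 the lowest, and within each replicate number POLDIP2 KO was above WT, by 1.18-fold, 1.43-fold and 1.38-fold. The log2 fold change was 0.41 (SE 0.468, 95% interval -0.70 to 1.51, limma adjusted p = 0.9998), so a fold change from 0.617 to 2.86 was within the interval.

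The replicate numbers accounted for most of the spread of NOX4. Of its sum of squares over the 6 libraries, 88.5% lay between replicate numbers, 10.6% between the lines and 0.882% in the rest, against medians of 52.0% between replicate numbers and 11% between lines over all genes tested. A replicate-number share at least as large as that of NOX4 was found for 10.6% of genes tested. The share of RAC1 was larger, at 98.2%, a level reached by 0.844% of genes tested. For the other tested members it was 10.1% to 48.4%. Same-numbered libraries correlated weakly in their deviations across genes (r of 0.129 to 0.315), so the number was also used as a block. With the block the fold change of NOX4 was the same, its SE was 0.137 and its 95% interval was 0.06 to 0.76, with a limma p of 0.0284 before and 0.36 after Benjamini-Hochberg adjustment over all genes. In the fit without the block, leaving out WT replicate 2, the library with the fewest NOX4 reads, gave a log2 fold change of -0.014. That fit kept POLDIP2 KO replicate 2, the lowest library of its line, so it does not bear on the paired difference.

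**Figure D2:**
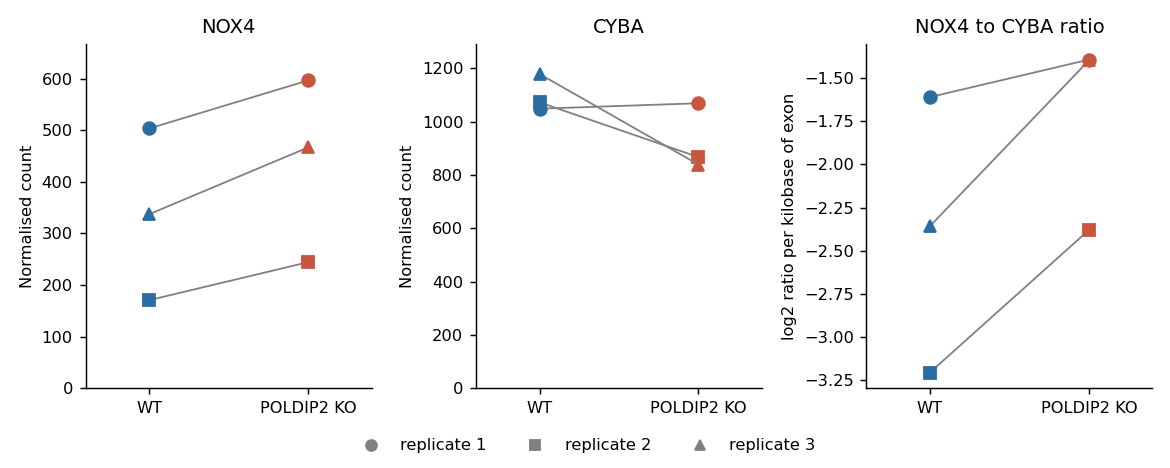
Normalised counts of NOX4 (left) and CYBA (middle) and the log2 ratio of NOX4 to CYBA per kilobase of exon (right) in WT and POLDIP2 KO, with a line joining the libraries of the same replicate number. NOX4 was higher in POLDIP2 KO in each of the 3 pairs, and CYBA was lower in replicates 2 and 3 and nearly level in replicate 1.

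CYBA (ENSG00000051523, chr16:88643275-88651083 on the minus strand), the gene of the p22phox partner that POLDIP2 binds, varied little and did not pass the test. It had 1049, 1073 and 1179 normalised counts in the WT libraries and 1069, 867 and 839 in those of POLDIP2 KO. The POLDIP2 KO libraries of replicates 2 and 3 lay below all WT libraries, and that of replicate 1 lay among them. The means were 1100.0 ± 69.3 and 925 ± 126 (SD, n = 3 each), a log2 fold change of -0.26 (SE 0.135, 95% interval -0.58 to 0.06, limma adjusted p = 0.922). Leaving out any 1 library gave -0.36 to -0.19.

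The balance of NOX4 to CYBA RNA was compared as a ratio within each library, in which the depth factor cancels. Per kilobase of annotated exon, the log2 ratio of NOX4 to CYBA was -1.61, -3.20 and -2.36 for WT and -1.39, -2.38 and -1.40 for POLDIP2 KO, so CYBA was the more abundant of the pair in every library. The ratio was higher in POLDIP2 KO in all 3 same-numbered pairs, by 0.22, 0.82 and 0.96, with a mean difference of 0.67. With all POLDIP2 KO libraries kept, the difference between the line means was 0.26 without WT replicate 2 and 1.06 without WT replicate 1. The ranges overlapped, and a two-sided exact permutation test gave p = 0.3, where 3 against 3 cannot go below 0.1. A sign-flip test of the pairs gave an exact p = 0.25, the smallest it can give. The level of the ratio depends on the length used for CYBA, whose exons cover 4161 bases together and 692 bases in the canonical transcript; the difference does not.

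**Figure D3:**
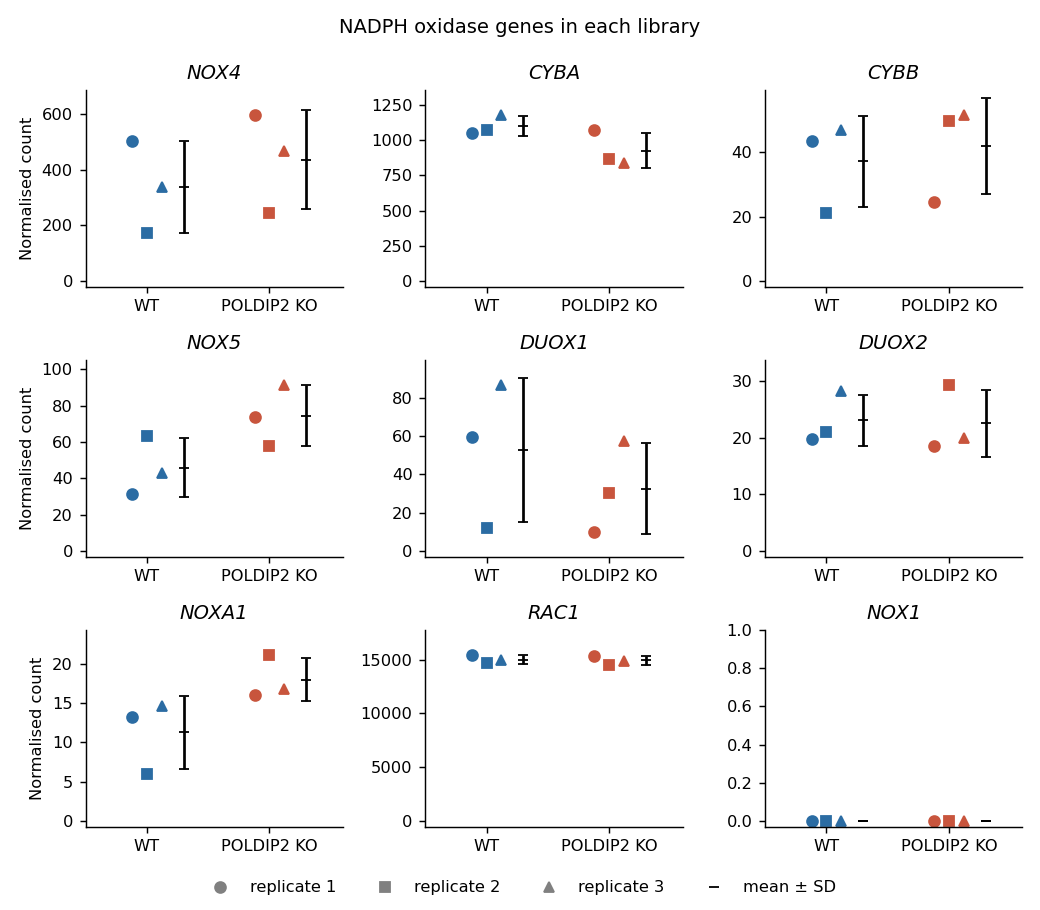
Normalised counts of the 9 NADPH oxidase genes in the 3 WT (blue) and 3 POLDIP2 KO (red) libraries, each panel with its own linear axis from 0; symbols are replicate numbers, and the black bar is the mean with 1 SD to each side. Among the detected genes, only NOXA1 shows no overlap between the lines, and NOX1 is at 0 in all 6 libraries.

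CYBB (ENSG00000165168, chrX:37780018-37813461 on the plus strand), the gene of NOX2, was low and did not differ beyond its spread. It had 43.5, 21.1 and 47.0 normalised counts across WT, against 24.6, 49.7 and 51.6 across POLDIP2 KO, from 20 to 61 reads per library. The low library was replicate 2 in WT and replicate 1 in POLDIP2 KO. The log2 fold change was 0.18 (SE 0.468, 95% interval -0.93 to 1.29, limma adjusted p = 0.9998), and it was -0.18 without WT replicate 2 and -0.0038 without POLDIP2 KO replicate 3. Of its cytosolic partners, NCF1 and NCF4, the genes of p47phox and p40phox, were at the floor of 3 reads or at 0, although NCF1 has near-identical pseudogene copies among which its reads could be split.

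Phagocytes are the cells known for CYBB, and their markers were absent or low. SPI1, AIF1 and TYROBP had 0 reads in all libraries, and PTPRC had 0 in WT and 1.23 to 6.95 normalised counts in POLDIP2 KO. Of the 9 phagocyte markers 6 were above the floor, among them CSF1R with 4 to 51 reads per library, ITGAM with 4 to 36, LYZ with 11 to 29 and FCER1G with 5 to 16, and the summed level was 82.5 to 96.3 in WT and 45.5 to 63.5 in POLDIP2 KO. Of these markers 3 could be tested and 0 were called by limma, also at an unadjusted p under 0.05. All 3 were lower in POLDIP2 KO. The lines did not overlap for CSF1R (log2 fold change -1.37, SE 0.614, limma adjusted p = 0.819), beside 10.9% of all genes tested. The part of these marker counts in the level of CYBB was not tested. Of 15 RPE markers 12 were above the floor, with summed levels of 76332 to 92300 in WT and 72658 to 100371 in POLDIP2 KO, most of it from the keratins KRT8 and KRT18. MITF and OTX2, transcription factors of the RPE, were expressed, whereas RPE65, the isomerase of the visual cycle, and TTR had 0 reads and TYR had at most 3. In RNA from whole cultures, fewer cells that express a gene and less RNA per cell cannot be told apart.

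NOX5 (ENSG00000255346, chr15:69014695-69062762 on the plus strand), a calcium-activated oxidase that does not need p22phox, had higher means in POLDIP2 KO and did not pass the test. It had 31.2, 63.2 and 42.8 normalised counts across WT, against 73.8, 57.8 and 91.4 across POLDIP2 KO. WT replicate 2 lay above POLDIP2 KO replicate 2, and the other WT libraries lay below all POLDIP2 KO libraries. The means were 45.7 ± 16.2 and 74.3 ± 16.8 (SD, n = 3 each), and the log2 fold change was 0.72 (SE 0.357, 95% interval -0.12 to 1.57, limma adjusted p = 0.88). GENCODE 44 holds a second entry named NOX5, which was not analysed here.

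DUOX1 (ENSG00000137857, chr15:45129933-45165576 on the plus strand) and DUOX2 (ENSG00000140279, chr15:45092650-45114172 on the minus strand) are neighbouring genes of the dual oxidases, which release hydrogen peroxide and are known from thyroid and airway epithelium. DUOX1 had 59.5, 12 and 86.7 normalised counts in the WT libraries and 9.84, 30.1 and 57.6 in those of POLDIP2 KO. Its highest library was 7.20 times its lowest in WT and 5.85 times in POLDIP2 KO, and its spread within the lines was larger than that of 96.2% of genes tested. The log2 fold change was -0.60 (SE 0.884, 95% interval -2.69 to 1.49, limma adjusted p = 0.9998), and it was 0.057 without POLDIP2 KO replicate 1. DUOX2 had 19.8, 21.1 and 28.2 normalised counts across WT, against 18.5, 29.3 and 19.9 across POLDIP2 KO, with a log2 fold change of -0.04 (SE 0.394, 95% interval -0.97 to 0.89, limma adjusted p = 0.9998) whose sign changed without WT replicate 3 (0.11), POLDIP2 KO replicate 1 (0.081) or POLDIP2 KO replicate 3 (0.031). The maturation factors that carry these oxidases out of the endoplasmic reticulum, DUOXA1 and DUOXA2, were at or near 0, as given above. DUOX1 and DUOXA1 overlap at their ends on opposite strands, and the strand setting of the counting is not given in the sources used here.

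NOXA1 (ENSG00000188747, chr9:137423350-137434406 on the plus strand), the activator of NOX1, was detected at a low level without its oxidase. It had 13.2, 6.02 and 14.6 normalised counts in the WT libraries and 16, 21.2 and 16.9 in those of POLDIP2 KO, from 6 to 26 reads per library, so that every POLDIP2 KO library lay above every WT library. The log2 fold change was 0.70 (SE 0.506, 95% interval -0.49 to 1.90, limma adjusted p = 0.9998), and it was 0.34 without WT replicate 2 and 0.46 with a pseudocount of 8. NOXO1, the organiser subunit of the same complex, had 5.67, 1.00 and 0 normalised counts across WT, against 7.38, 3.26 and 3.97 across POLDIP2 KO, too few to test. NOX1 itself (ENSG00000007952, chrX:100843324-100874359 on the minus strand) was at 0, as given above.

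RAC1 (ENSG00000136238, chr7:6374527-6403967 on the plus strand), a small GTPase that switches on NOX1 and NOX2 and also steers the actin cytoskeleton, was the most abundant member and the least variable. It had 15445, 14667 and 14928 normalised counts in the WT libraries and 15391, 14528 and 14891 in those of POLDIP2 KO, and in both lines replicate 1 was the highest and replicate 2 the lowest. Its SD within the lines was 0.0399 on the log2 scale, smaller than that of all but 0.47% of genes tested, against a median of 0.237. The log2 fold change was -0.01 (SE 0.092, 95% interval -0.22 to 0.21, limma adjusted p = 0.9998), which keeps the fold change between 0.856 and 1.16, and it was 0.013 without WT replicate 1 and 0.012 without POLDIP2 KO replicate 2. Reads of 9 RAC1 pseudogenes came to 0 to 2 per library in all.

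RAC1 also made up most of the Rac RNA. Its share of RAC1, RAC2 and RAC3 per kilobase of exon was 86.7%, 87.1% and 89.2% in WT and 87.8%, 84.9% and 89.4% in POLDIP2 KO, a difference of -0.28 percentage points (two-sided exact permutation test, p = 1, smallest possible 0.1), which was 0.47 without WT replicate 3 and 0.95 without POLDIP2 KO replicate 2. RAC2, the Rac of blood cells, had 86.0, 59.2 and 66.8 normalised counts across WT, against 59.0, 50.5 and 52.6 across POLDIP2 KO. Its lines did not overlap, by a margin under 1 normalised count, and its log2 fold change was -0.37 (SE 0.271, limma adjusted p = 0.9998). RAC3 had 337 ± 45.8 and 354 ± 74.0 normalised counts (SD, n = 3 each) and a log2 fold change of 0.06 (SE 0.207).

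Genes are comparable with each other only per length. Per kilobase of annotated exon, the mean level in WT was 1814 for RAC1, 264 for CYBA, 55.3 for NOX4, 7.73 for CYBB, 6.73 for NOXA1, 6.0 for DUOX1, 3.74 for NOX5 and 2.38 for DUOX2. RAC1, CYBA and NOX4 were separated from each other and from the rest in all 6 libraries, also per kilobase of the canonical transcript. The levels depend on the length used. Per kilobase of the canonical transcript, the WT means were 6502 for RAC1, 1590 for CYBA and 79.0 for NOX4. DUOX1, at 9.62, then stood above CYBB, at 8.69. The WT ranges of neighbours from CYBB down to DUOX2 overlapped, so the order of neighbours was not resolved. For example, the range was 4.38 to 9.78 for CYBB and 1.37 to 9.87 for DUOX1. CYBB and NOXA1 lay above DUOX2 in all 6 libraries. Among the catalytic subunits, the share of NOX4 was 80.2%, 68.1% and 68.0% in WT and 87.3%, 65.0% and 74.0% in POLDIP2 KO. The mean difference was 3.40 percentage points (two-sided exact permutation test, p = 0.7, smallest possible 0.1), and it was -2.53 without POLDIP2 KO replicate 1.

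Across the 8 members that passed the filter of a mean of at least 10 normalised counts, 0 were called by limma at an adjusted p under 0.05 and a fold change over 1.5. Of the 14684 genes tested, 25 were called, which is 0.17%. The edgeR and DESeq2 tests on recovered reads also called 0 of the members, beside 17 and 248 of the 14684 genes. At an unadjusted p under 0.05 the members numbered 0 of 8, beside 6.48% of all genes tested. After blocking on replicate number the count was 1, NOX4, beside 11.1% of all genes. The lines did not overlap for 1 member, NOXA1, beside 10.9% of all genes. Of the 8 log2 fold changes 4 were above 0 and 4 below, with a median of 0.09, beside -0.0003 over all genes tested. The width of the intervals differed widely between the members. Those of RAC1 and CYBA lay inside a 1.5-fold change in either direction, though that of CYBA reached -0.59 with the block, while those of the other 6 members reached beyond it, so a change of that size was not excluded for them.

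**Figure D4:**
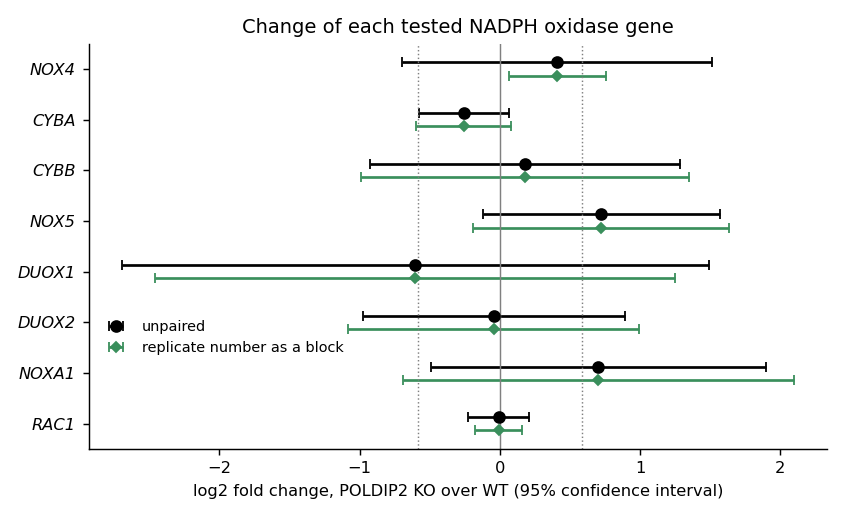
Log2 fold change of POLDIP2 KO over WT for the 8 NADPH oxidase genes tested, with 95% confidence intervals, from limma without pairing (black circles) and after blocking on replicate number (green diamonds); dotted lines mark a 1.5-fold change. Among the members, only the blocked interval of NOX4, 0.06 to 0.76, leaves out 0, and the interval of DUOX1 is the widest.

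The genes around the oxidases were taken from lists by function. Of 8 other NADPH oxidase subunits 2 could be tested, RAC2 and RAC3, and 0 were called. Of 9 oxidase maturation and NOX4 partner genes, which include the chaperones that fold the membrane subunits, all were tested and 1 was called, POLDIP2 itself. SH3PXD2A, the gene of the NOX organiser-like scaffold TKS5 and chosen here after its values were seen, had 234, 126 and 171 normalised counts in the WT libraries and 144, 93.6 and 89.4 in those of POLDIP2 KO, with a log2 fold change of -0.69 (SE 0.311, limma adjusted p = 0.827, and 0.292 with the block).

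Of 17 RAC1 control and effector genes 16 were tested and 0 were called by limma, with 10 log2 fold changes above 0 and 6 below. Unadjusted p values under 0.05 were found for 2 of these 16, CHN1 and ELMO2, beside the 6.48% of all genes tested. CHN1, the gene of the Rac GTPase-activating protein chimaerin, had 39.7, 128 and 107 normalised counts across WT, against 230.0, 278 and 273 across POLDIP2 KO. All POLDIP2 KO libraries were above all WT libraries, and the log2 fold change was 1.66 (SE 0.434, 95% interval 0.63 to 2.68, limma adjusted p = 0.352). DESeq2 on recovered reads called CHN1, at an adjusted p of 0.0351, and over all settings the adjusted p ranged from 0.00361 to 0.865. ELMO2, part of an exchange factor for RAC1 and named after its values were seen, had a log2 fold change of -0.38 (SE 0.123, limma adjusted p = 0.551). ELMO1 had -0.67 (SE 0.572) at 7.33 to 27.1 normalised counts, and IQGAP1, a scaffold protein bound by RAC1 and the gene with the most normalised counts of the list, had 0.13 (SE 0.128).

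Of 14 genes that supply NADPH, the electron donor, all were tested and 0 were called, with 11 log2 fold changes above 0 and 3 below and a median of 0.08. The values ran from -0.11 to 0.49. MTHFD1, an enzyme of folate metabolism, had 736 ± 232 normalised counts for WT and 1006 ± 115 for POLDIP2 KO (SD, n = 3 each; log2 fold change 0.49, SE 0.224, limma adjusted p = 0.83). TKT, the transketolase of the pentose phosphate pathway and the most abundant of the list, had 0.28 (SE 0.322). Of 6 aquaporins that let hydrogen peroxide through, 2 could be tested and 0 were called. AQP1 had 34.0, 6.02 and 4.18 normalised counts in the WT libraries and 48.0, 13 and 19.9 in those of POLDIP2 KO, with the replicate 1 library highest in both lines, and a log2 fold change of 1.16 (SE 0.86), while that of AQP11 was -0.07 (SE 0.243).

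**Figure D5:**
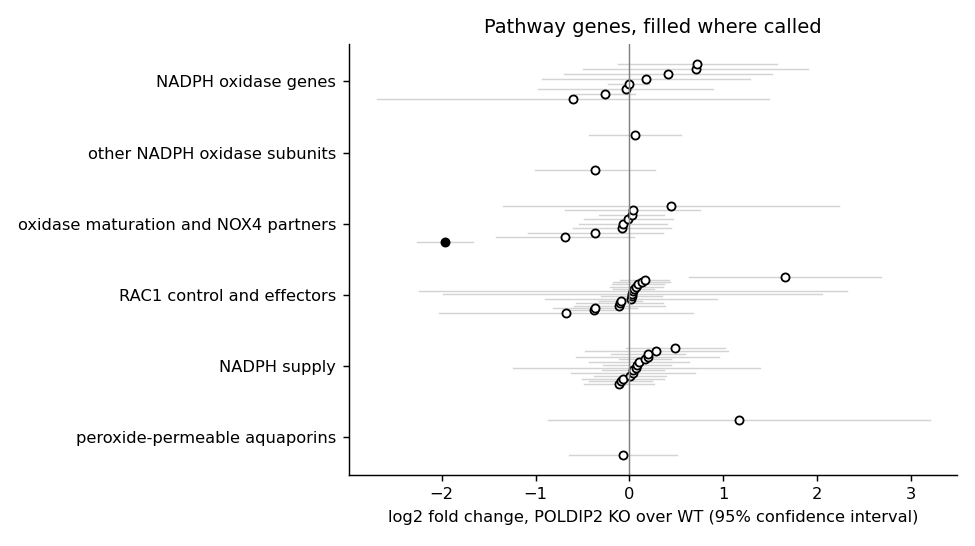
Log2 fold change of POLDIP2 KO over WT with 95% confidence intervals (grey) for each tested gene of the NADPH oxidase group and of 5 lists around it; filled points passed an adjusted p of 0.05 and a fold change of 1.5 in limma. POLDIP2, at -1.97, is the filled point, and CHN1, at 1.66, is the open point furthest to the right.

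The genes whose log2 levels followed NOX4 most closely over the 6 libraries were ATP2B4, a plasma membrane calcium pump (Pearson r 0.995), SKP2, a subunit of a ubiquitin ligase (0.994), and LIX1L, RABL3 and RPL39L (0.993 each). SKP2 had 1089, 667 and 876 normalised counts across WT, against 1124, 756 and 993 across POLDIP2 KO, high in replicate 1 and low in replicate 2 as NOX4 was. An r over 0.95 was found for 78 of 14683 genes. Among the members, r with NOX4 was 0.84 for RAC1, 0.53 for NOXA1, 0.24 for CYBB, 0.21 for DUOX1, -0.01 for NOX5, -0.01 for CYBA and -0.51 for DUOX2. These values describe 6 libraries of 2 lines that share the replicate numbers and carry no test.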

How the data were processed

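The authors quantified reads with Salmon 1.8, collapsed them to GRCh38 genes through tximport, divided by DESeq2 1.34.0 size factors and deposited this signal as normalised counts. The annotation release is not given in the sources used here. Of 37902 genes, 34152 were named through GENCODE 44. All columns of sample values were used (0 left out). Division by the smallest value recovered whole reads (all values within 0.001). In WT replicate 2 and POLDIP2 KO replicate 3 this step is close to 1, at 1.00336 and 0.992953, so recovered reads and deposited values differ little there. The floor of 3 reads covers counting error only, whereas the limma intervals rest on the spread between libraries.

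The lines were compared with limma 3.58.1 (R 4.3.3) on log2(normalised count + 1), which understates changes of low genes, for a mean of at least 10, with trended eBayes and Benjamini-Hochberg adjustment over 14684 genes. Only the limma fit without the block was run on simulated data, with the same dispersion for all genes and no effect of replicate number. That run does not bear on the block, edgeR, DESeq2 or the exact tests. Members and lists were chosen with earlier results of these data known. In the lists, 1 gene is not reported here. Named are all members, POLDIP2, the genes called in each list or else its 2 largest changes and its highest level, and the 5 genes most like NOX4. Deviations of same-numbered libraries correlated at 0.315, 0.137 and 0.129, all over 0.1, and were therefore treated as pairs in the block, although other combinations reached 0.147 (WT replicate 3 with POLDIP2 KO replicate 2). The labels call the replicates biological, and p values measure the spread between these libraries of 1 line each. Alternatives included edgeR 4.0.16 and DESeq2 1.42.0 on recovered reads. Lengths are unions of GENCODE 44 exons.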

Additional observations from a re-analysis of the deposited data

How the results depend on the processing

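No member was called under any of the 18 alternatives run, or the 17 for members that fell below a mean of 50, and the adjusted p of NOX4 ranged from 0.36 to 1. Over all genes, the 25 calls became 16 with a mean of at least 50 (10 higher, 6 lower), 17 with edgeR on recovered reads, 248 with DESeq2, 30 with the replicate block in limma, and, chosen after seeing the data, 5 with edgeR and 392 with DESeq2 under the block. Leaving out 1 library left 0 to 5. In the lists around the oxidases the 1 call became 2 with DESeq2, with or without the block, and 0 to 1 without 1 library. The log2 fold change of DUOX2 was 0.040 after quantile normalisation. Without 1 library, log2 fold changes ran from -0.014 to 0.78 for NOX4, -0.18 to 0.52 for CYBB, -0.029 to 0.013 for RAC1, -1.43 to 0.057 for DUOX1, -0.24 to 0.11 for DUOX2 and 0.34 to 0.92 for NOXA1, and the NOX4 to CYBA log2 ratio from 0.26 to 1.06. The RAC1 share ran from -1.32 to 0.95 and the NOX4 share, a measure added after seeing the data, from -2.53 to 8.61 percentage points. For these changes the cause was not tested. The fits without 1 library did not use the block. Depth limits what can be said of genes with few reads, such as NOXA1 with 6 to 26 per library. In limma the block changed no call among the members or the lists.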
